A study of Rattus norvegicus with 15 samples.

Results

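The genes described are 10 genes of antigen presentation and of the interferon response in the perinatal rat ductus arteriosus and aorta: RT1-A1, B2m, Tap1, Psmb8 and Psmb9 of the class I pathway, RT1-Da, RT1-Ba, RT1-Bb and Cd74 of the class II pathway, and the interferon-induced gene Rsad2. Their members are all probe sets of chips A, B and C that the platform annotation assigns to 1 of these genes alone, which gives 36 of the 26202 probe sets and 10 of the 10969 named genes of the series. Class I genes held 13 of these probe sets, class II genes 20 and Rsad2 3. The ductus arteriosus is the fetal vessel between pulmonary artery and aorta that closes after birth.

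RNA came from vessels in 5 states, with 1 array of each chip per state, or 15 arrays in all. Fetal ductus and fetal aorta were taken on gestation day 19 from normoxic dams. For the oxygen ductus, dams breathed 100% oxygen during 3 h, and their fetuses were taken at the same age. Newborn ductus and newborn aorta were taken 3 h after vaginal birth. Fetal vessels were dissected in cold medium gassed with 2.5% oxygen and newborn vessels at 12.5%. Newborn and fetal arrays thus differ in age, in delivery and in the oxygen of the medium, and these cannot be told apart. Ratios and effects called birth below mean newborn against fetal in this sense. The aorta comprised arch and thoracic parts, and the number of animals behind an array was not given. Strain and sex were not given either. With 1 array per state there is no replicate check of any difference between states.

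Class I molecules are built from an RT1 heavy chain and the light chain B2m, and show peptides from inside the cell at its surface. Those peptides are cut by proteasomes, in which Psmb8 and Psmb9 can take the place of the constitutive catalytic subunits, and are carried into the endoplasmic reticulum by the transporter of which Tap1 is one subunit. Class II molecules pair an alpha chain, such as RT1-Da or RT1-Ba, with a beta chain such as RT1-Bb, are escorted by the invariant chain Cd74, and are made mainly by professional antigen-presenting cells. Interferons raise most of these genes in many cell types, and Rsad2 (viperin) is an antiviral protein that interferons induce.

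The promoter windows of the 10 genes were read from RefSeq (build GRCr8), and all 10 matched by symbol. The interferon-stimulated response element is the DNA sequence through which interferons raise many of their targets. Its core was searched on both strands as GAAANNGAA, in windows from 250 bases before to 50 bases after the annotated start, and was present in 4 of 10 members against 9.50% of 27457 promoters. The same repeat read in the other order, GAANNGAAA, was added after the windows had been read and was present in 3 of 10 members against 8.43% of promoters. Either form was present in 6 of 10 members against 16.6% of promoters, and the 2 forms can overlap. A match is a run of letters and was not tested for binding. The windows of the 4 genes whose brightest probe set was at least 2-fold higher in newborn than in fetal ductus, and of Tap1, which was not, are shown as 250 bases before and 20 bases after the start, 5′ to 3′ on the gene's strand, with matches to either form in capitals. They lie at chr20:4906959-4907228 (RT1-A1, plus strand), chr3:129549080-129549349 (B2m, plus strand), chr20:4657012-4657281 (Psmb8, minus strand), chr6:48788101-48788370 (Rsad2, minus strand) and chr20:4668524-4668793 (Tap1, minus strand).
RT1-A1: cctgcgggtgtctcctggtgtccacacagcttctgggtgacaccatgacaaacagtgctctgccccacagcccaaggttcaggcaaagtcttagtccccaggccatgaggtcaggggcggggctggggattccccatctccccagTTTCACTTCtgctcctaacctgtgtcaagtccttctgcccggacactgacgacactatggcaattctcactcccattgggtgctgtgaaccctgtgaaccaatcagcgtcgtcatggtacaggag
B2m: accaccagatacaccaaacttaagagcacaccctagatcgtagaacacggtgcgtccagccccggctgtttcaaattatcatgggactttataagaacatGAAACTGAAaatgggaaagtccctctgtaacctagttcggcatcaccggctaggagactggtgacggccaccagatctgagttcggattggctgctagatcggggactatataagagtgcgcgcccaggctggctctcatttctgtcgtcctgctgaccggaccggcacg
Psmb8: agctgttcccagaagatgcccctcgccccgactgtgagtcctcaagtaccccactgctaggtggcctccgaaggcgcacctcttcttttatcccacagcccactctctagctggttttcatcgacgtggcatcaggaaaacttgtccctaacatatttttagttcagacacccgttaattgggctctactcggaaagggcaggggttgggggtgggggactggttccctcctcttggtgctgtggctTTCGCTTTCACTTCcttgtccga
Rsad2: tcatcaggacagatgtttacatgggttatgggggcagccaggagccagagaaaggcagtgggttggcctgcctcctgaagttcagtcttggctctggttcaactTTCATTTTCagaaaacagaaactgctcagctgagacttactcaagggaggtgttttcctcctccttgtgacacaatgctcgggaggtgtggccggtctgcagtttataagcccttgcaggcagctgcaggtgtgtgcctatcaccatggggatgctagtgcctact
Tap1: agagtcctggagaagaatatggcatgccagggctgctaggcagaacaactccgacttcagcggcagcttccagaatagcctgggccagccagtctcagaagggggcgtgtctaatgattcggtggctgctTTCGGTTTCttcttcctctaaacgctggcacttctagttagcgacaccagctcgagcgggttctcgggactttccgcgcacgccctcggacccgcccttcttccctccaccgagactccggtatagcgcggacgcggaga

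The match began 150 bases before the start in B2m, 146 in Rsad2, 120 in Tap1 and 105 in RT1-A1. Cd74, whose brightest set was lower after birth, also held a match, of the second form, 86 bases before the start. In Psmb8 the 2 forms overlapped and ran across the start itself, from 3 bases before it. The Tap1 and Psmb9 genes start next to each other on opposite strands, and their windows share 44 bases. The gamma-activated site, through which interferon gamma acts, was searched as TTCNNNGAA and was present in 1 of 10 members, Psmb8, against 8.68% of promoters. The GGGAA letters of a kappaB site were present in 8 of 10 members against 62.1% of promoters.

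Class II promoters are known for a conserved module that ends in a Y box, an inverted CCAAT. The letters CCAAT on either strand were present in 8 of 10 members against 37.7% of promoters, and all 4 class II genes held them. The 3 class II chain genes each carried the inverted form close to the start, at 49 bases before it in RT1-Da, 43 in RT1-Ba and 61 in RT1-Bb. The placement is not particular to class II, since RT1-A1 (31 bases before the start), B2m (64) and Psmb8 (73) held the inverted letters there too. Stretches of 60 bases around it are shown to make the placement in the 3 chain genes visible, at chr20:4515331-4515390 (RT1-Da, plus strand), chr20:4576979-4577038 (RT1-Ba, plus strand) and chr20:4604155-4604214 (RT1-Bb, minus strand), with the Y box in capitals.
RT1-Da: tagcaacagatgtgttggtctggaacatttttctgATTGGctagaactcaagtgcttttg
RT1-Ba: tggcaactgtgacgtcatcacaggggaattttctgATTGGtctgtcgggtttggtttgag
RT1-Bb: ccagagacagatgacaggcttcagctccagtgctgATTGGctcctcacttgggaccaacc

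Signals are the deposited linear intensities of each array, which had been scaled before deposit. The floor is the median signal of a chip over its 5 arrays, 149.8 on chip A, 241.7 on B and 243.0 on C, and values under it were set to it before any ratio was taken, which makes a fold a lower bound where 1 of its signals was at the floor. Between 46.9% and 51.8% of probe sets lay above the floor on an array, and trimmed mean signals lay between 495 and 498. The SD of a log2 ratio was estimated from the difference between the birth ratios of both vessels over probe sets of like signal. It lay between 0.22 and 0.36, and it includes real differences between the vessels. All 6 smooth muscle markers on the chips were above the floor in all 5 states, and their summed signal was 54580.5 in fetal and 82154.6 in newborn ductus, and 38039.5 in fetal and 52336.6 in newborn aorta. Endothelial markers summed to 5810.8 in fetal and 7769.8 in newborn ductus, and to 6089.4 in fetal and 9039.0 in newborn aorta. Both lists were thus higher after birth, as most class I signals were, though not Tap1 in the ductus. Heart muscle markers had a summed signal of 18909.2 in fetal ductus against 5963.2 in newborn ductus, and fat markers had 6867.0 in newborn aorta against 367.0 to 781.9 in the other 4 states. The part of these cell types and tissues in the results was not tested. In whole vessels, fewer cells of a type and less RNA per cell cannot be told apart.

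Of the 36 member probe sets, 21 were above the floor in fetal or newborn ductus. In that pair 7 were at least 2-fold higher in the newborn and 1 was at least 2-fold lower, against a background of 2.06% higher and 1.89% lower among 14206 probe sets. The 7 were the set of RT1-A1, both sets that share 1 sequence of B2m, the main set of Psmb8, a set of RT1-Ba and both chip A sets of Rsad2. The lower one was a set of Cd74. By class, the higher ones were 4 of 8 measured class I sets, 1 of 11 class II sets and 2 of 2 Rsad2 sets. In the aorta, newborn over fetal, 1 of 19 measured sets (Rsad2) was at least 2-fold higher and 1 (Cd74) at least 2-fold lower, against backgrounds of 2.51% and 2.49%. Read at the brightest set of each gene, the median log2 ratio of the members at birth was 0.76 in ductus and 0.20 in aorta, beside -0.05 in both vessels over all named genes. A median over genes that passed the floor leans toward the state in which they are high, so it is a description only.

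**Figure D1:**
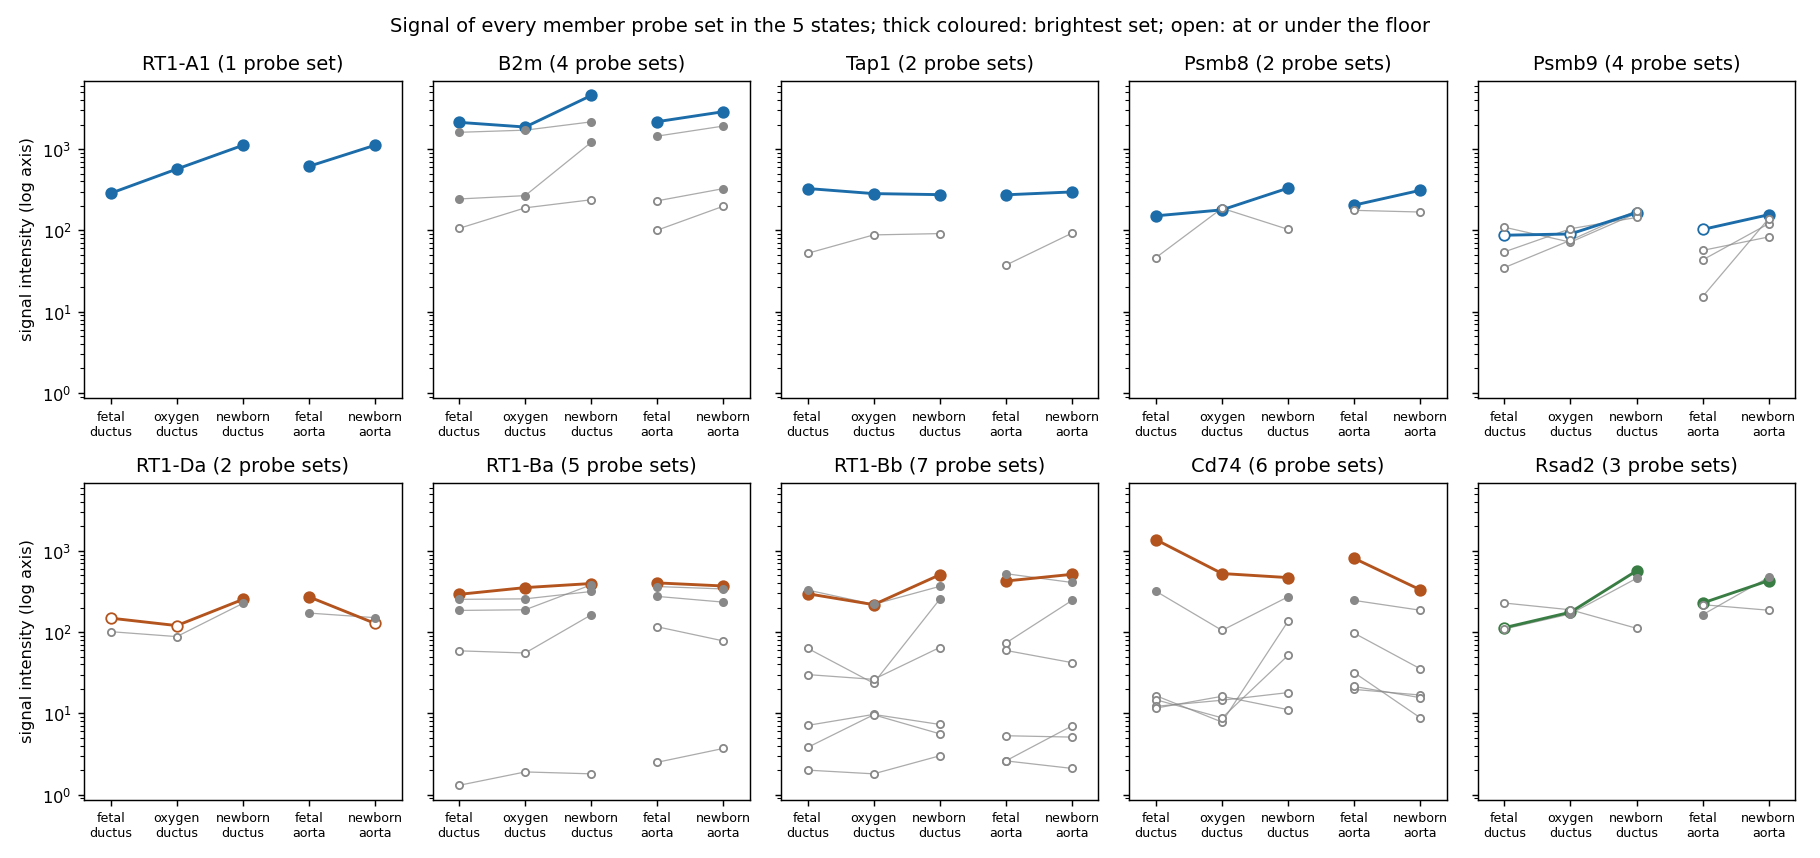
Signal intensity (log axis) of all 36 member probe sets in the 5 states, 1 panel per gene, with the brightest set of each gene thick and coloured (blue class I, brown class II, green Rsad2), other sets grey, and open symbols for values at or under the floor; lines join states of 1 vessel. RT1-A1, B2m, Psmb8 and Rsad2 stand higher in the newborn than in the fetal ductus, while Cd74 is highest in the fetal ductus at its brightest set and lies under the floor at 4 other sets.

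RT1-A1 encodes a classical class I heavy chain. Its probe set, H33922_f_at on chip C, gave a signal of 286.5 in fetal ductus, 568.8 in oxygen ductus, 1115.5 in newborn ductus, 614.9 in fetal aorta and 1117.9 in newborn aorta. Both newborn vessels shared 1 level, and the fetal ductus was the lowest of the 5. The newborn ductus was 3.89-fold above the fetal ductus, a log2 ratio of 1.96 against an SD of 0.33, and the newborn aorta 1.82-fold above the fetal aorta, a log2 ratio of 0.86. The newborn ductus also stood 1.96-fold above the oxygen ductus, a comparison that does not use the fetal ductus array. The suffix _f marks a probe set that reads a family of similar sequences, so near-identical class I genes may add to this signal.

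Other class I heavy chain genes gave a picture of their own. RT1-CE16, another class I heavy chain gene, had a signal of 1245.9 in fetal ductus, 1237.7 in oxygen ductus, 2633.7 in newborn ductus, 1314.8 in fetal aorta and 2714.7 in newborn aorta. Both newborn arrays lay above all 3 fetal ones, by 2.11-fold in ductus and 2.06-fold in aorta. The class I list had 13 genes above the floor, RT1-A1 and the class I-like genes Cd1d1, Fcgrt, Hfe and Procr included. Of the 13, 11 had a higher signal in newborn than in fetal ductus, against 45.2% of all named genes. In both vessels 9 had a higher signal after birth. Among the class I-like genes, Procr had a log2 ratio of 0.84 in ductus and 0.59 in aorta, and Hfe of -0.25 and 0.26. Over all named genes measured in both vessels, 26.5% were higher after birth in both. Without RT1-A1 the median log2 ratio of the list was 0.40 in ductus and 0.37 in aorta. These sets can share probes of like sequence, so they are not independent readings. Of 4 further probe sets that the annotation assigns to several class I genes, 1 was above the floor throughout, at 496.3 in fetal ductus, 719.1 in newborn ductus, 556.8 in fetal aorta and 681.6 in newborn aorta.

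B2m, the light chain of all class I molecules, was read by 4 probe sets. The brightest, rc_AA848811_g_at on chip B, gave 2136.5 in fetal ductus, 1871.6 in oxygen ductus, 4582.3 in newborn ductus, 2180.6 in fetal aorta and 2893.3 in newborn aorta. The newborn ductus was the highest state, and fetal ductus and fetal aorta were close to each other. The newborn ductus was 2.14-fold above the fetal ductus and 2.45-fold above the oxygen ductus, and the newborn aorta was 1.33-fold above the fetal aorta.

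The other B2m sets differed in size. The set rc_AA848811_at, from the same sequence, gave 243.7, 267.9, 1216.6, 231.4 and 327.0 in fetal ductus, oxygen ductus, newborn ductus, fetal aorta and newborn aorta, which is 4.99-fold between newborn and fetal ductus. The chip A set gave 1611.7 in fetal ductus, 1713.5 in oxygen ductus, 2167.7 in newborn ductus, 1448.1 in fetal aorta and 1925.0 in newborn aorta, and its newborn over fetal fold was 1.34 in ductus and 1.33 in aorta. All 3 sets placed newborn over fetal in both vessels, and the excess of the ductus over the aorta came from the chip B sets. The chip C set was under the floor in all 5 states.

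Psmb8, the immunoproteasome subunit that can replace Psmb5, gave 151.1 in fetal ductus, 178.9 in oxygen ductus, 331.6 in newborn ductus, 204.7 in fetal aorta and 311.6 in newborn aorta at its chip A set. Both newborn arrays were above the 3 fetal ones, and the fetal ductus lay just over the floor. The newborn over fetal fold was 2.19 in ductus, a log2 ratio of 1.13 against an SD of 0.34, and 1.52 in aorta. Its chip C set was under the floor throughout. Psmb9, which can replace Psmb6, gave 87.2, 90.4, 165.8, 102.7 and 156.0 in the same order of states at its brightest set. Only the newborn arrays reached the floor, so the fold is at least 1.11 in ductus and at least 1.04 in aorta. Psmb10, which can replace Psmb7, was above the floor in the oxygen ductus alone, at 260.2.

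The constitutive subunits gave other values. Psmb5 gave 4618.5 in fetal ductus, 5802.0 in oxygen ductus, 3922.4 in newborn ductus, 4849.9 in fetal aorta and 4410.6 in newborn aorta. Psmb7 gave 2018.2 in fetal ductus, 2548.4 in oxygen ductus, 2320.9 in newborn ductus, 2899.5 in fetal aorta and 1903.0 in newborn aorta, and Psmb6 had no probe set of its own. Of 13 constitutive core subunits, 5 were higher and 8 lower in newborn than in fetal ductus, with a median log2 ratio of -0.18, and 12 of 13 were higher in oxygen than in fetal ductus, with a median of 0.33, against 55.0% higher over all named genes in that pair. No core subunit was 2-fold apart in either pair. Under quantile scaling 10 of 13 were higher in oxygen than in fetal ductus, with a median of 0.23, beside 4442 of 7567 named genes.

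Tap1 gave 327.8 in fetal ductus, 283.7 in oxygen ductus, 275.5 in newborn ductus, 274.1 in fetal aorta and 297.4 in newborn aorta. The 5 states lay close together, and its log2 ratio at birth was -0.25 in ductus and 0.12 in aorta against an SD of 0.34. Its second set, from the same sequence, was under the floor throughout. Among other genes of peptide supply, Erap1, the aminopeptidase that trims peptides for class I, gave 353.3 in fetal ductus, 508.6 in oxygen ductus, 864.9 in newborn ductus, 412.8 in fetal aorta and 813.8 in newborn aorta. That is 2.45-fold between newborn and fetal ductus. Other Erap1 sets did not share that size: rc_AI044567_at, from the same sequence, gave 343.7 in fetal and 340.9 in newborn ductus, rc_AI171503_at gave 377.8 and 464.3, and the last set was under the floor throughout. Of 14 genes of peptide supply and loading above the floor, 13 had a higher signal in newborn than in fetal ductus, against 45.2% of all named genes. In both vessels 10 were higher in the newborn, and the median log2 ratio was 0.28 in ductus and 0.26 in aorta. Under quantile scaling 11 of 14 were higher in newborn than in fetal ductus, beside 3417 of 7515 named genes.

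**Figure D2:**
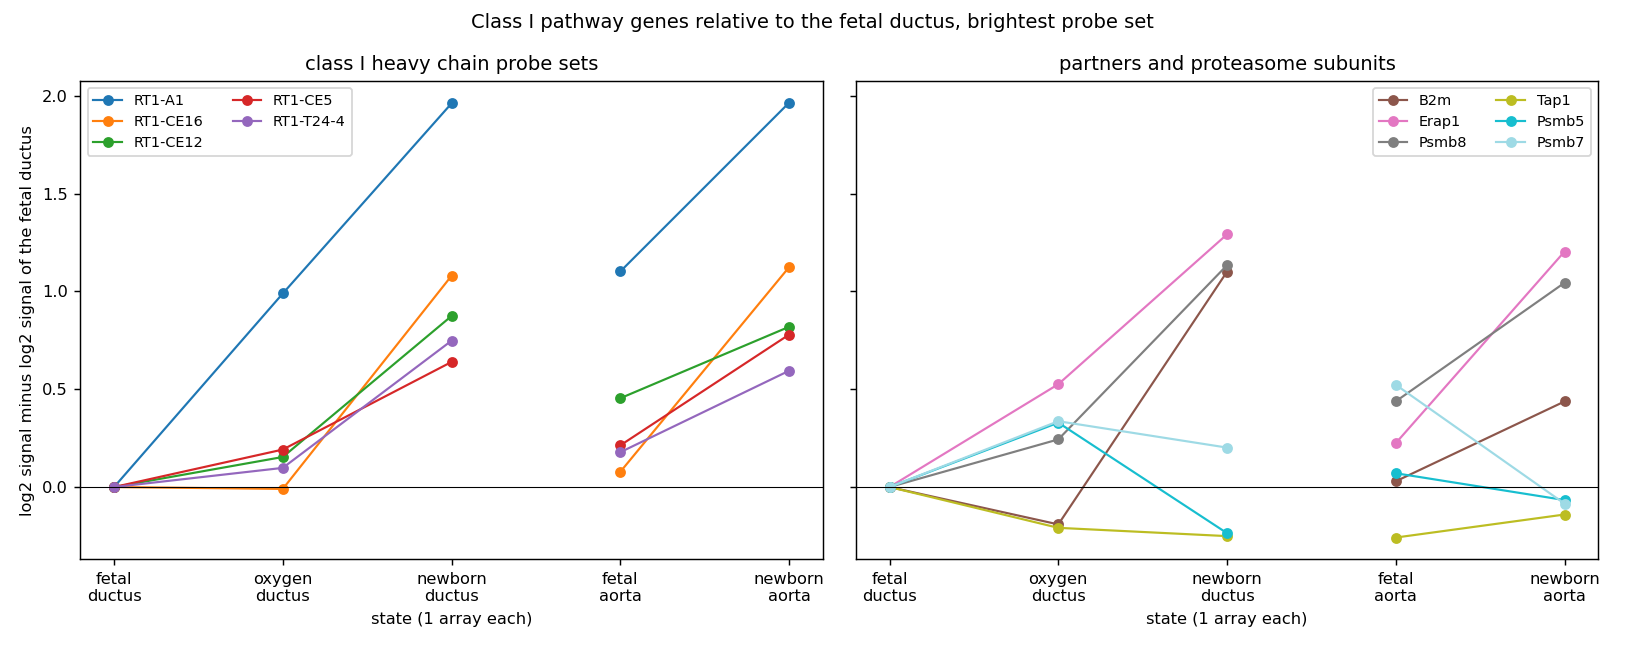
Log2 signal of class I pathway genes minus their log2 signal in the fetal ductus, in the 5 states (brightest probe set, 1 array per state, lines join states of 1 vessel); left, heavy chain sets, of which RT1-CE12, RT1-CE5 and RT1-T24-4 were chosen after their values were seen; right, partners and proteasome subunits. All 5 heavy chain sets stand higher in both newborn vessels than in any fetal or oxygen array, as do Erap1, B2m and Psmb8, while Tap1, Psmb5 and Psmb7 do not.

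Most probe sets of class II genes were under or near the floor. RT1-Da, an alpha chain, gave 148.5 in fetal ductus, 120.2 in oxygen ductus, 252.6 in newborn ductus, 271.6 in fetal aorta and 127.9 in newborn aorta at its brightest set. It was above the floor in newborn ductus and fetal aorta and at the floor elsewhere, so it was at least 1.69-fold higher in newborn than in fetal ductus and at least 1.81-fold lower in newborn than in fetal aorta. Its second set gave 101.2, 88.0, 225.7, 171.4 and 150.5 in the same order, with the newborn ductus highest, whereas the brightest set was highest in fetal aorta.

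RT1-Ba, the other alpha chain, gave 291.6 in fetal ductus, 352.9 in oxygen ductus, 396.2 in newborn ductus, 403.2 in fetal aorta and 369.3 in newborn aorta at its brightest set, a family set on chip C. The states lay within 1.36-fold between newborn and fetal ductus and 1.09-fold between fetal and newborn aorta. On chip A, K02815_s_at gave 184.8 in fetal ductus, 188.3 in oxygen ductus, 382.0 in newborn ductus, 274.9 in fetal aorta and 233.7 in newborn aorta, and there the newborn ductus was 2.07-fold above the fetal ductus. All 3 RT1-Ba sets that were above the floor in every state were higher in newborn than in fetal ductus and lower in newborn than in fetal aorta. Of the other 2 sets, 1 was under the floor in every state, and X07551cds_s_at passed it only in newborn ductus, at 163.3.

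RT1-Bb, the beta chain, gave 296.9 in fetal ductus, 217.6 in oxygen ductus, 506.7 in newborn ductus, 425.1 in fetal aorta and 513.9 in newborn aorta at its brightest set. The oxygen ductus was the lowest and the newborn vessels were close to each other. The newborn ductus was 1.71-fold above the fetal ductus and 2.33-fold above the oxygen ductus. X56596_at gave 329.8, 219.5, 365.1, 523.5 and 408.2 in the same order, and M15358cds_at was above the floor only in newborn ductus (253.1) and newborn aorta (244.9). The other 4 sets were under the floor throughout.

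Cd74, the invariant chain, had its brightest reading at rc_AI105172_r_at on chip C, with 1372.5 in fetal ductus, 525.8 in oxygen ductus, 468.5 in newborn ductus, 807.7 in fetal aorta and 331.3 in newborn aorta. Both newborn arrays and the oxygen ductus were below both fetal arrays. The newborn ductus was 2.93-fold below the fetal ductus, the newborn aorta 2.44-fold below the fetal aorta and the oxygen ductus 2.61-fold below the fetal ductus. The suffix _r marks a set for which some design rules of the array were dropped. The companion set from the same sequence, rc_AI105172_i_at, gave 318.3, 105.0, 272.0, 245.4 and 185.8 in that order, which is 1.17-fold lower in newborn than in fetal ductus. The 4 chip A sets were under the floor throughout, and X13044_at among them had its highest value, 136.6, in newborn ductus. When _i and _r sets were left aside, as was done after the values had been seen, no Cd74 value was above the floor in any state and no member was 2-fold lower at birth.

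Of the 14 genes of the class II list above the floor in ductus, 10 had a higher and 4 a lower signal in newborn than in fetal ductus, against 45.2% higher over all named genes, with a median log2 ratio of 0.20, and in the aorta the median was -0.18. Ciita, the master activator of class II transcription, gave 343.3 in fetal ductus, 272.3 in oxygen ductus, 346.8 in newborn ductus, 316.1 in fetal aorta and 363.2 in newborn aorta. The oxygen ductus was the lowest state and the newborn aorta the highest. Ctss, the protease that cuts the invariant chain, gave 398.2 in fetal ductus and 895.2 in fetal aorta, 2.25-fold lower in the ductus.

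Leukocyte markers were read beside these values. T or NK cell markers above the floor numbered 8 of 14 in newborn ductus and 2 to 4 in the other states, and their summed signal was 3035.6 in newborn ductus against 1455.6 to 1864.2 elsewhere. Cd3d (206.1), Cd3g (412.2) and Cd8a (152.6) passed the floor in newborn ductus alone, and Cd3e, the chain common to T cell receptors, gave 343.4, 365.8, 595.6, 373.1 and 471.0 in fetal ductus, oxygen ductus, newborn ductus, fetal aorta and newborn aorta. Other markers of the list did not share this. Cd4 was highest in fetal aorta, at 240.0 against 223.3 in newborn ductus, and Gzmb passed the floor only in fetal aorta, at 156.7. Cd2, Cd5, Klrb1a, Nkg7 and Prf1 were under the floor in every state. The summed T or NK cell signal was thus highest in the state where RT1-Da, K02815_s_at of RT1-Ba and B2m were high, and its part in those values was not tested.

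By summed signal, the macrophage and pan-leukocyte lists were highest in fetal aorta, while pan-leukocyte markers above the floor were most numerous in newborn ductus. Macrophage markers summed to 3930.6 in fetal ductus, 4015.6 in oxygen ductus, 4765.0 in newborn ductus, 7077.7 in fetal aorta and 5613.6 in newborn aorta, with 7, 8, 8, 10 and 9 of 11 above the floor. Pan-leukocyte markers summed to 2851.4, 2669.7, 4216.4, 4829.7 and 4445.7, with 3, 3, 5, 4 and 3 of 8 above the floor. Ptprc, the common leukocyte antigen, gave 178.0, 165.3, 178.0, 227.6 and 128.8. Cd68 gave 575.3, 548.5, 576.9, 561.9 and 485.0, while Cd163, a marker of resident macrophages, passed the floor only in newborn ductus, at 323.5. That was its brightest set, and its other sets were under the floor throughout. Mrc1 of the same list passed the floor only in fetal aorta, at 402.4, against 128.6 in newborn ductus. Both B cell markers on the chips were under the floor in every state, dendritic cell markers summed to 386.0 to 551.5, and no marker was listed at 0. Cd79a and Itgax had no probe set of their own.

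Rsad2 was read at Y07704_at with 113.3 in fetal ductus, 175.7 in oxygen ductus, 567.6 in newborn ductus, 228.1 in fetal aorta and 430.4 in newborn aorta. Both newborn arrays were above the 3 fetal ones, and the fetal ductus was under the floor. The newborn ductus was at least 3.79-fold above the fetal ductus and 3.23-fold above the oxygen ductus, and the newborn aorta was 1.89-fold above the fetal aorta. Y07704_g_at, from the same sequence, gave 109.1, 167.5, 459.1, 163.5 and 473.6 in that order, at least 3.06-fold in ductus and 2.90-fold in aorta. The chip C set was under the floor throughout, and its highest value, 227.9, was in fetal ductus.

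The wider list of interferon-induced genes gave mixed values. Of 20 such genes above the floor in fetal or newborn ductus, 1 (Rsad2) was at least 2-fold higher and 1 (Oas1a) at least 2-fold lower in the newborn, with a median log2 ratio of 0.04 that turned to -0.01 under quantile scaling, and 1 of 17 (Ifitm1) was at least 2-fold higher in the aorta. Over all named genes 1.72% were that much higher and 1.79% lower in ductus, and 2.12% higher in aorta. Oas1a, an antiviral enzyme that makes 2′-5′ oligoadenylates, gave 616.4 in fetal ductus, 637.2 in oxygen ductus, 209.4 in newborn ductus, 706.6 in fetal aorta and 457.0 in newborn aorta. Its other measured set gave 404.5, 447.8, 368.2, 396.8 and 516.6, without that drop. Ifitm1, a membrane protein that blocks virus entry, gave 206.7, 204.6, 436.4, 224.7 and 684.5, with both newborn arrays highest. Mx1 was under the floor in all 5 states.

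Upstream of these genes stand the interferons and their receptors. Ifnb1 and Ifng were under the floor in all 5 states. Ifnar2, a chain of the type I interferon receptor, gave 682.5 in fetal ductus, 532.0 in oxygen ductus, 293.3 in newborn ductus, 654.3 in fetal aorta and 374.1 in newborn aorta, 2.33-fold lower in newborn than in fetal ductus. Irf1, a transcription factor of the interferon response, gave 165.6, 208.8, 270.8, 197.2 and 259.3 in the same order. Of 8 genes of the list of interferons, receptors and kinases above the floor in ductus, 3 were higher and 5 lower in the newborn, against 45.2% higher over all named genes.

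**Figure D3:**
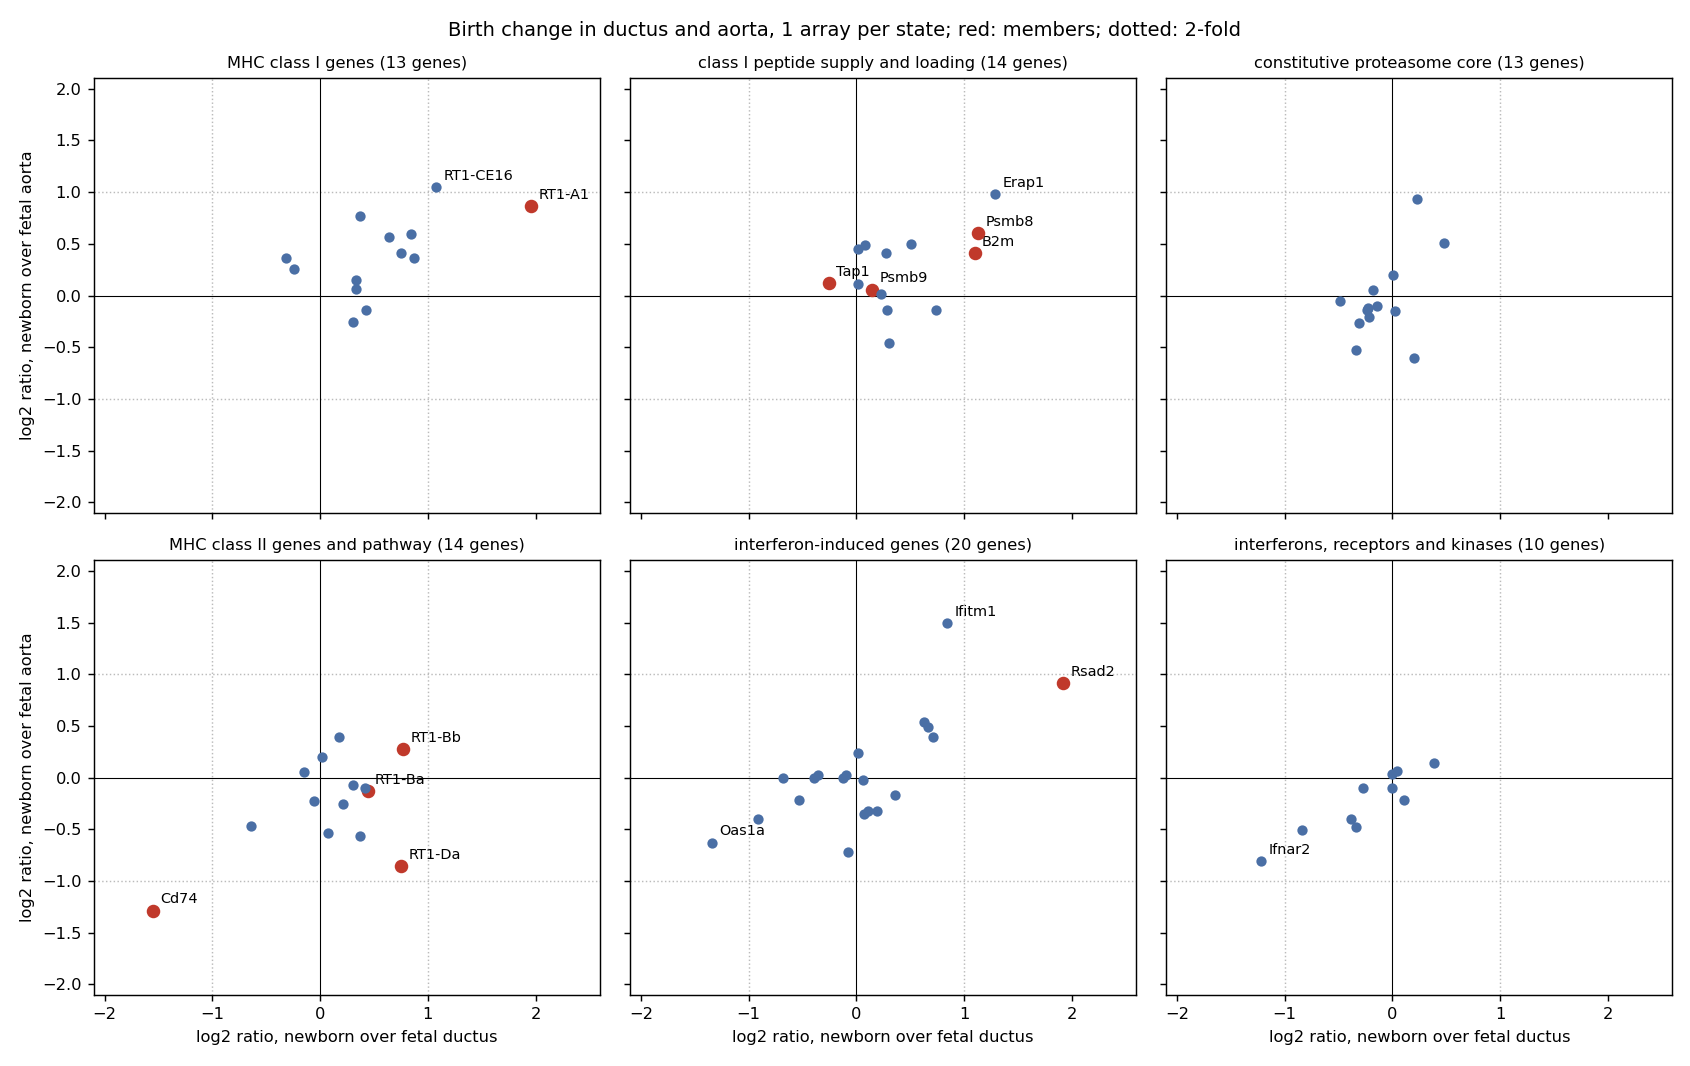
Log2 ratio of newborn over fetal signal in the ductus (horizontal) and in the aorta (vertical) for genes of 6 lists that were above the floor in at least 1 vessel, read at the brightest probe set with 1 array per state; members are red and dotted lines mark 2-fold. RT1-A1, Psmb8, B2m and Rsad2 lie up in both vessels, Cd74 lies down in both, and RT1-Da lies up in the ductus and down in the aorta.

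Birth was also tested with limma, with vessel and stage as separate terms, on the 4 arrays per chip other than the oxygen ductus. The test took in 13810 probe sets, each measured above the floor by 2 or more of these arrays. It left 1 residual degree of freedom, so its errors lean on the spread shared across probe sets. Values under the floor were set to it here too. A rise with a fetal array at the floor is therefore a lower bound, and its SE and p hold for floored values only. The floor can also narrow the gap between the vessels that serves as error. At Y07704_g_at of Rsad2 the fetal ductus signal of 109.1 was raised to 149.8, after which the birth ratios differed by 0.08. Without the floor that gap is wider. Such sets include both Rsad2 sets (fetal ductus), rc_AA848811_at of B2m (fetal aorta) and M15358cds_at of RT1-Bb (both fetal arrays). At an adjusted p under 0.05 within each chip the newborn was higher in 0.956% and lower in 0.731% of probe sets. Of the 36 member probe sets, 19 could be tested, covering all 10 genes, and 3 passed. The Rsad2 set Y07704_g_at rose, with a log2 difference of 1.58 ± 0.19 (SE) and a limma adjusted p of 0.0142, and so did Y07704_at, with 1.42 ± 0.27 (SE) and a limma adjusted p of 0.0416. Cd74 at its _r set fell, with a difference of -1.42 ± 0.18 (SE) and a limma adjusted p of 0.0443, whereas its _i set gave -0.12 ± 0.18 (limma adjusted p = 0.769). In all 3 sets both vessels moved the same way. The fit takes the difference between the vessels as its error, so such agreement is favoured among sets that pass and is not separate evidence.

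The class I members did not pass. RT1-A1 had a log2 difference of 1.41 ± 0.27 (limma adjusted p = 0.0994), the B2m set rc_AA848811_at 1.38 ± 0.36 (limma adjusted p = 0.0754), and Psmb8 0.87 ± 0.21 (limma adjusted p = 0.0773). The brightest B2m set had 0.75 ± 0.24 (limma adjusted p = 0.129), and Tap1 had -0.07 ± 0.20 (limma adjusted p = 0.910). Among class II chains the lowest adjusted p was that of the RT1-Bb set M15358cds_at, with an effect of 0.73 ± 0.19 (limma adjusted p = 0.0965). RT1-CE16 rose by 1.06 ± 0.19 (limma adjusted p = 0.0395) and Erap1 by 1.14 ± 0.22 (limma adjusted p = 0.0356) at its brightest set only, as its other tested sets gave 0.17 ± 0.23 (limma adjusted p = 0.746) and 0.51 ± 0.19 (limma adjusted p = 0.239). Ifnar2 fell, with an effect of -1.01 ± 0.23 (limma adjusted p = 0.0490). All 13 genes of the class I list that were tested, class I-like genes included, had a positive estimate, and 1 passed. Of 14 genes of peptide supply 12 had a positive estimate, and 1 passed. An estimate averages both vessels, so its sign can come from 1 of them, as for Hfe with log2 ratios of -0.25 in ductus and 0.26 in aorta. In both vessels 9 of the 13 and 10 of the 14 were higher after birth. The share of positive estimates over all tested sets is not given here. Of the class II, interferon-induced and receptor lists 1 gene each passed, namely Cd74, Rsad2 and Ifnar2.

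These calls moved with the floor and the scaling, and adjustment over the probe sets of all 3 chips together, tried after the data were seen, gave limma adjusted p values of 0.0523 for Y07704_at, 0.0188 for Y07704_g_at, 0.0252 for Cd74, 0.0490 for RT1-CE16 and 0.0566 for Ifnar2. With the floor at the 25th percentile the Y07704_at set of Rsad2 had a limma adjusted p of 0.302 and Cd74 of 0.146, and with no filter 0.844 and 0.538. With the floor at the 60th percentile Rsad2 stood at 0.0502, while RT1-A1 and B2m passed, at limma adjusted p values of 0.0444 and 0.0282. Quantile scaling gave 0.105 for Rsad2 and 0.00390 for RT1-A1.

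Between the vessels the limma fit called 0.0145% of probe sets higher and 0.0217% lower in the ductus, and 0 of 19 member sets. Of the 19, 2 had an unadjusted limma p under 0.05, against 7.75% of all sets tested. The member lowest in adjusted p was the B2m set rc_AA848811_at, with 0.95 ± 0.36 (SE; limma adjusted p = 0.562). In the fetal pair 0 of 17 measured member sets stood 2-fold higher in ductus and 1, RT1-A1, stood 2.15-fold lower, against backgrounds of 1.01% and 0.913%. The median log2 ratio of the 9 measured genes was -0.47, and 7 of them were lower in fetal ductus. Over all named genes the median was -0.02, and 47.9% were higher in fetal ductus. In the newborn pair 1 of 21 sets, rc_AA848811_at of B2m, was at least 2-fold higher in ductus and 0 were lower, against 1.26% and 1.27%. The median over 10 genes was 0.10, beside -0.01 over all named genes. RT1-A1 had the same signal in both newborn vessels, a fold of 1.00. The fetal ductus array enters both the birth ratio of the ductus and the fetal vessel ratio, so low RT1-A1 on that array moves both.

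The oxygen ductus differs from the fetal ductus by the oxygen that its dams breathed. From the newborn ductus it differs also in age, delivery and dissection medium, so it does not isolate oxygen as a step toward the newborn. Of 15 measured member sets 0 stood 2-fold higher and 1 (Cd74) was at least 2-fold lower in oxygen than in fetal ductus, against backgrounds of 0.493% and 2.11%. RT1-A1 was 1.99-fold higher, a log2 ratio of 0.99 against an SD of 0.33 and just under 2-fold. B2m had a log2 ratio of -0.19, Tap1 of -0.21, Psmb8 of 0.24 and RT1-Bb of -0.45. Psmb9 and RT1-Da were under the floor on both arrays, and Rsad2 was at least 1.17-fold higher.

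In newborn over oxygen ductus 6 of 21 measured member sets stood higher by 2-fold or more and 0 were lower by that much, against backgrounds of 4.56% and 2.71%. At the brightest sets these were B2m (2.45-fold), RT1-Bb (2.33-fold) and Rsad2 (3.23-fold). Psmb8 was 1.85-fold higher and Cd74 had a log2 ratio of -0.17. The median over the 10 genes was 0.82, beside -0.09 over all named genes. The interferon-induced list has 37 genes on the chips, not all above the floor. In that pair 3 of them were at least 2-fold lower, against 3.24% of all named genes measured. Rsad2 was at least 2-fold higher, against 2.59%. The 3 lower genes were Oas1a (at least 2.62-fold), Usp18 (at least 2.46-fold) and Eif2ak2 (2.46-fold). Among ductus arrays all 3 were highest in oxygen, and the other Oas1a set gave 447.8 there against 368.2 in the newborn. Under quantile scaling 16 of 22 measured genes of this list were higher in oxygen than in fetal ductus, beside 4442 of 7567 named genes. In newborn over oxygen ductus 11 of 23 were higher and 12 lower under that scaling, beside 3148 of 7659 named genes higher. Oxygen over fetal ductus and newborn over oxygen ductus share the oxygen array.

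**Figure D4:**
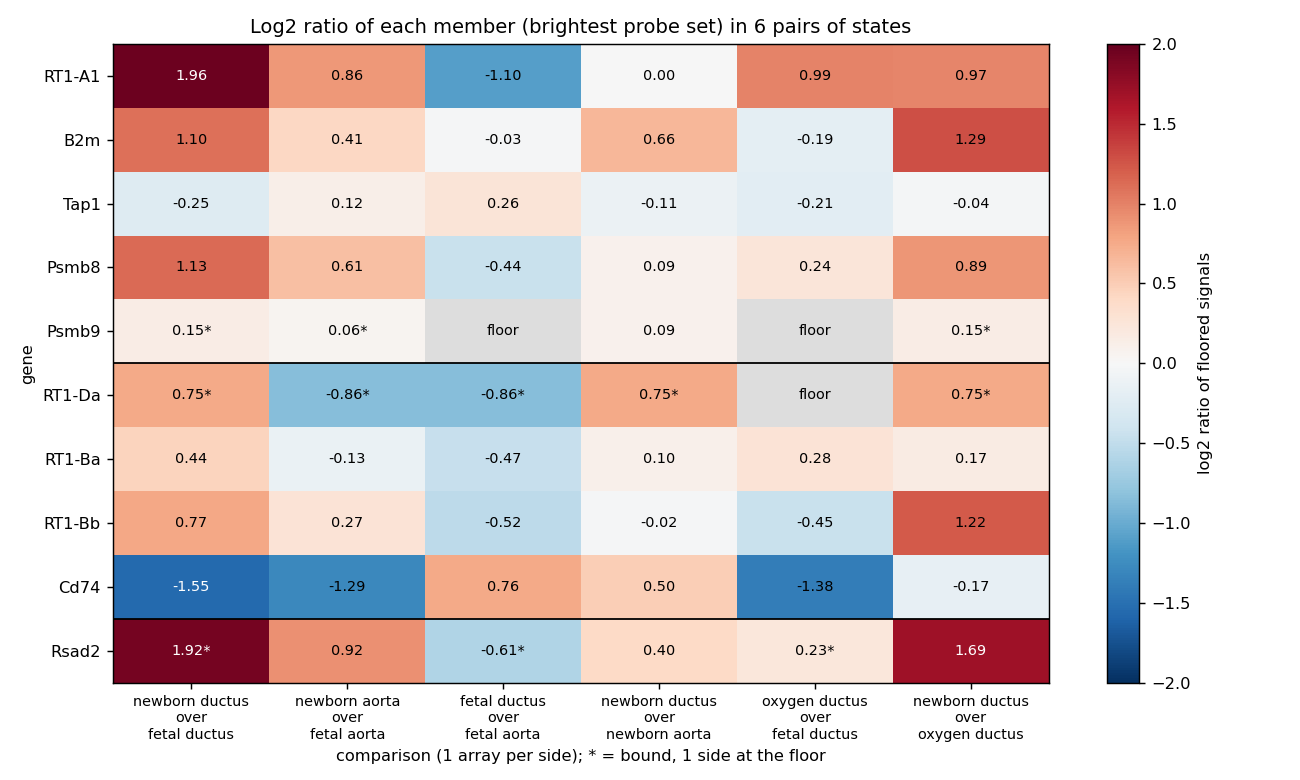
Log2 ratio of the floored signals of each member at its brightest probe set in 6 pairs of states, 1 array per side; an asterisk marks a bound with 1 side at the floor, and grey cells marked floor had both sides there. RT1-A1 and Rsad2 hold the highest ratios in newborn over fetal ductus (1.96 and 1.92), and Cd74 the lowest (-1.55).

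Genes with the nearest pattern over the 5 arrays of the same chip were found by the root mean square difference of centred log2 signals. For Psmb8 they were Anxa1 (0.0346), Ptgs1 (0.0848) and Lgals3 (0.0960), among 1904 genes. For B2m they were Stk38l (0.123), H2ac25 (0.129) and Arhgef12 (0.129), among 2112 genes. For RT1-A1 they were Urah (0.256), Net1 (0.258) and Rbm38 (0.292), among 2227 genes. For Rsad2 they were Ybx3 (0.164), Kcnd3 (0.191) and Nr4a1 (0.256), among 2479 genes, and for Cd74 they were Xpo1 (0.285), Ccne1 (0.326) and Pygo2 (0.332). None of the genes nearest to a member was itself on the lists of antigen presentation or interferon response.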

How the data were processed

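RNA of 5 vessel states was measured on 3 Affymetrix rat chips, 1 array per state and chip. The deposited values are linear signal intensities scaled before deposit. The submitters' processing notes name MAS5 for 4 of the 5 chip A arrays; for the fetal aorta array and for chips B and C the software is not given in the sources used here. The chip A newborn aorta array is titled as 3 h after coitum but described as newborn, and was taken as newborn. States of chips B and C come from their titles.

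Of 26202 probe sets without controls, 18178 have 1 gene in the platform annotation, 391 several and 7633 none, and 18122 symbols were found by gene number in RefSeq with 0 changes. Only sets with 1 gene were named. Signals under the chip median were set to it, log2 was taken, and a gene was read at its brightest set. Pairs of states were compared by fold, with no test, and 2-fold differences were counted among sets above the floor on at least 1 array. Birth and vessel effects were fitted per chip with limma 3.58.1 (R 4.3.3) on 4 arrays, for sets above the floor on at least 2, with Benjamini-Hochberg adjustment over all sets of a chip, and the script was tested on simulated data. The spread of a log2 ratio is 1.4826 times the median absolute deviation of the difference between both birth ratios, divided by the square root of 2.

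The members and gene lists were chosen with earlier results of these data known. Named are all members, list genes at least 2-fold apart (up to 3 each way per pair), defining cell markers, constitutive proteasome subunits and nearest patterns; Irf1, Mx1, Ciita, Ifnb1, Ifng and further T cell markers and class I genes were added after their values were seen. Alternatives were other floors, no filter, quantile scaling, the mean of a gene's sets, a 1.5-fold threshold, an intensity-dependent prior, a filter on all 4 arrays, and, added after the data were seen, sets other than _i and _r and adjustment over all 3 chips.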

Additional observations from a re-analysis of the deposited data

Results flagged for a closer look

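The birth ratios of 3 members ran in opposite directions in the vessels at their brightest probe sets. RT1-Da was up in the ductus (log2 ratio at least 0.75) and down in the aorta (-0.86, also a bound), so that the ductus exceeded the aorta by 1.61 on the log2 scale. RT1-Ba was up in the ductus (0.44) and down in the aorta (-0.13), a gap of 0.57. Tap1 was down in the ductus (-0.25) and up in the aorta (0.12), a gap of -0.37. With 1 array per state these differences were not tested. The aorta ratio of RT1-Ba compares with an SD of a single ratio of 0.31. The gap of Tap1 is a difference of 2 ratios, so its SD is larger than the 0.34 of a single Tap1 ratio. At the second RT1-Da set the ductus ratio was at least 0.59 and the aorta ratio -0.19. The newborn ductus, in which RT1-Da and RT1-Ba were high, also had the highest summed signal of T or NK cell markers, and the part of these markers was not tested.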

How the results depend on the processing

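Leaving out a replicate was not possible with 1 array per state. No paired analysis was possible because the labels give no replicate numbers to share. Of 297 alternative values of member log2 ratios, 271 stayed within the spread, 26 moved by more and 0 reversed. Of the 55 alternative values of the 11 member ratios that were at least 2-fold, 52 kept the direction, 46 stayed at least 2-fold and 3 were at zero. For the counts, pairs are given in the order birth in ductus, birth in aorta, fetal ductus over aorta, newborn ductus over aorta, oxygen over fetal ductus and newborn over oxygen ductus. With the floor at the 25th percentile, the probe sets 2-fold apart numbered 1755, 2030, 1221, 1484, 1456 and 2649, and 2 members each were lower at birth in aorta and in fetal ductus over aorta. With the floor at the 60th percentile, 475 (birth in aorta), 176 and 227 (ductus over aorta, fetal and newborn) and 206 (oxygen) sets were 2-fold apart, and 0 members were lower in fetal ductus over aorta. Quantile scaling placed 1 member higher at birth in aorta and 1 higher in oxygen ductus. With the mean of all sets of a gene, 0 members were lower at birth in ductus, at birth in aorta and in oxygen ductus, and 1 was higher at birth in aorta. Leaving _i and _r sets aside, added after the data were seen, gave 0 lower members in the same 3 pairs. At 1.5-fold, 2496, 2690, 1385, 1827, 1731 and 3636 sets were apart. At that threshold 3 members were higher and 2 lower at birth in aorta, 1 higher and 3 lower in fetal ductus over aorta, 2 higher in newborn ductus over aorta, 1 higher in oxygen ductus and 6 higher in newborn over oxygen ductus. In the limma fit, which called 233 sets for birth and 5 for vessel, the floor at the 60th percentile gave 440 and 33, the intensity trend 532 and 65, and the filter on all 4 arrays 356 and 24, with 1 member set called for birth. No filter, and the floor at the 25th percentile, gave 0 and 0 calls and 0 member calls, which the limma fit reached while 2575 sets had an unadjusted p under 0.05 in the reported setting. Quantile scaling gave 21 calls for vessel, and Psmb8 passed with the trend, at a limma adjusted p of 0.0430. The causes of these shifts were not tested. Many member signals lie near the floor, so their folds are bounds.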
